A study of Mus musculus with 8 samples.

Results

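The genes described here encode the invariant chains of the T cell receptor complex, its coreceptors and their close membrane partners. They are 10 genes: Cd3d, Cd3e, Cd3g, Cd4, Cd8a, Cd8b1, Cd5, Cd6, Cd28 and Lat. They were chosen by name, and every array probe whose RefSeq accession maps to one of these symbols was taken, which gave 13 probes for the 10 of 20284 genes named on the array. All 10 genes were among the 13608 genes tested, through 12 of the 13 probes. The second Cd6 probe, A_52_P294977, was not well above background on any of the 8 arrays and was not tested.

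The arrays measured RNA of mouse spleen cells that were enriched as natural killer (NK) cells on magnetic columns. They were then sorted on a ChAT-eGFP reporter, in which green fluorescent protein marks cells that express choline acetyltransferase. The groups were 4 pools of reporter-positive cells (ChAT_positive) and 4 pools of reporter-negative cells (ChAT_negative), each pool from 2 to 4 mice, and strain and age stand in none of the sources used here. The labels do not say whether pools of a group shared mice, and each p-value therefore covers only the spread among these pools, some of which may be technical. A sample is a bulk pool, so fewer cells of a type and less RNA per cell cannot be told apart. Each group lay on a slide of its own, so that slide and group cannot be told apart anywhere in the comparison.

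On a T cell, the variable receptor chains bind antigen while Cd3d, Cd3e, Cd3g and Cd247 carry the signal inward. Cd4 or Cd8 hold the antigen-presenting molecule and bring the kinase Lck, which lets Zap70 phosphorylate the scaffold Lat. NK cells carry no T cell receptor, but several of the inner parts, Cd247 and Lat among them, also serve NK cell activating receptors.

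Values are log2 signals relative to the 75th percentile of all non-control probes on the same array, so a value of 0 lies at that percentile, and are not compared between probes. A difference is ChAT_positive minus ChAT_negative, and a gene was called at a limma adjusted p under 0.05 over all genes. None of the 10 genes was called (0 of 10), where 5.96% of all tested genes were called. Of the 10, 1 gene (Cd28) had an unadjusted limma p under 0.05, where 24.8% of all genes did. Fitted probe by probe, 0 of the 12 tested probes were called, where 3.09% of all probes were. The groups overlapped for all 10 genes, and 15.5% of all genes had groups that did not overlap. The mean was lower in ChAT_positive pools for 6 of the 10, where 46.9% of all genes were lower, and the median difference of the 10 was -0.060, beside 0.025 over all genes. These results are from the unpaired fit. The labels do not pair pools by number, and the rule used asks that same-numbered arrays correlate for every number. Same-numbered arrays deviated together from their group means for numbers 1, 2 and 3 (correlations 0.54, 0.66 and 0.52) and not for number 4 (0.032). The unpaired fit and the permutation tests do not take this shared deviation into account. With the array (replicate) number as a block, 3 of the 10 genes were called, Cd4, Cd8b1 and Cd28, beside 2342 of all 13608 genes.

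**Figure D1:**
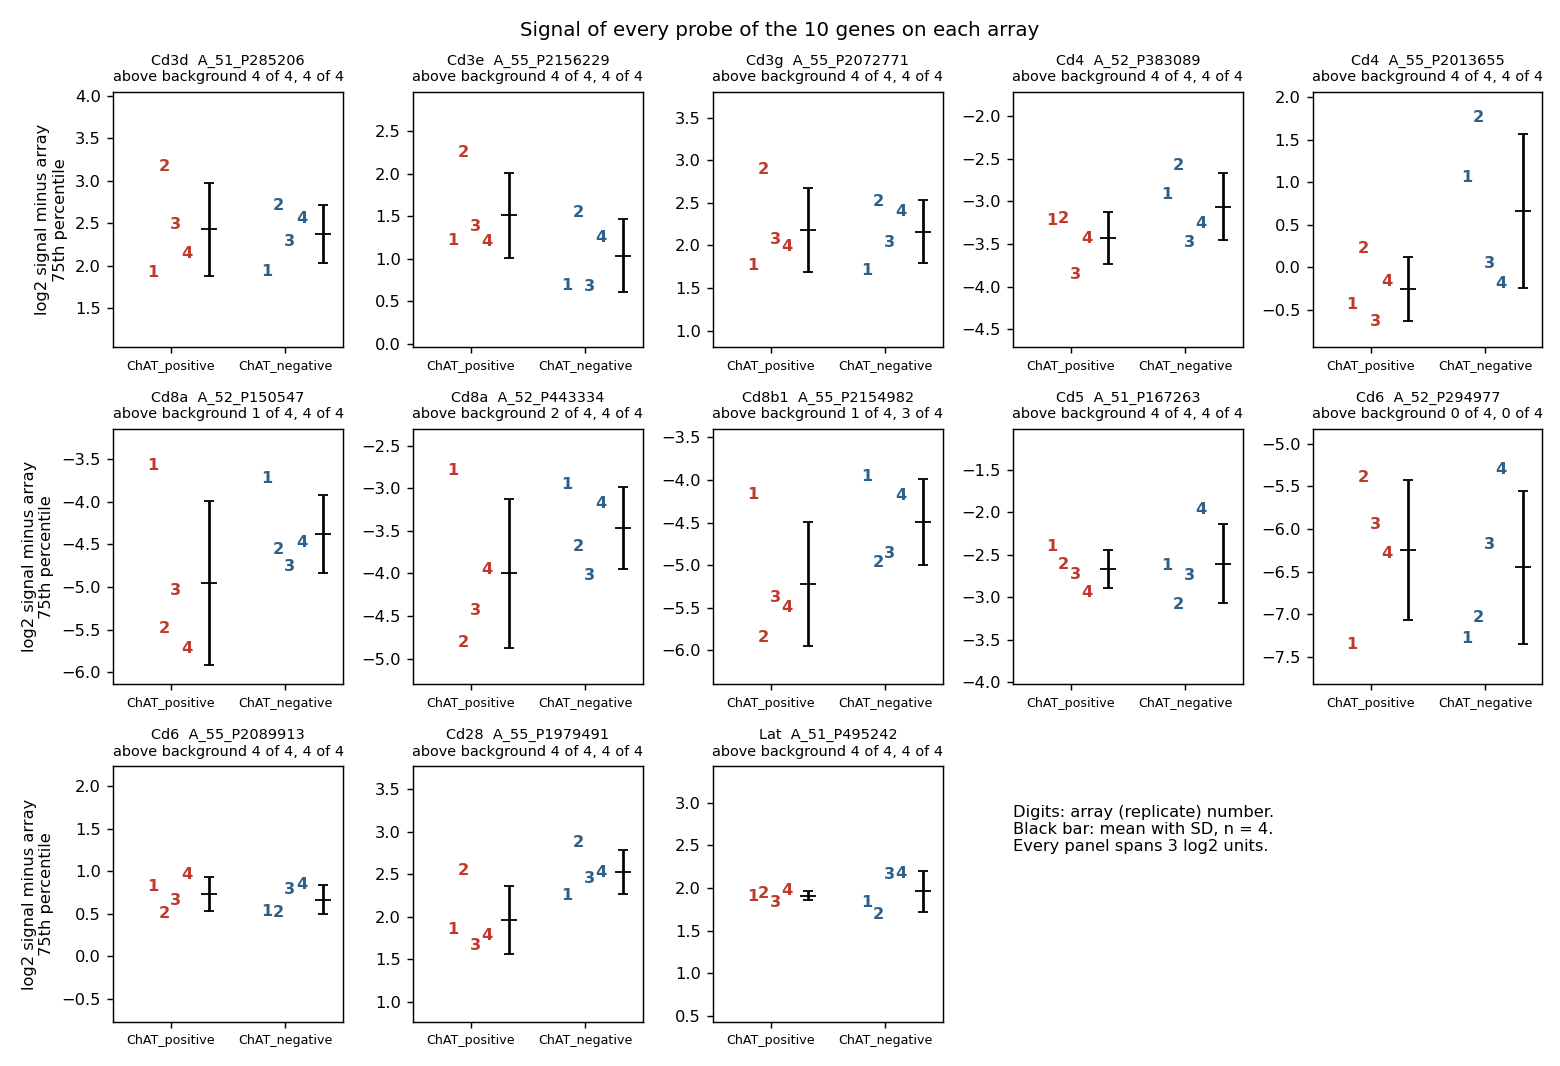
The log2 signal (vertical axis, relative to each array's 75th percentile) of each of the 13 probes on the 4 ChAT_positive arrays (left, red) and the 4 ChAT_negative arrays (right, blue); digits are array numbers and black bars are means with SD (n = 4). The groups overlap in every panel, and ChAT_positive array 2 is the highest array for the 3 CD3 chains and the lowest for A_52_P443334 (Cd8a) and Cd8b1.

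None of the 3 CD3 chains passed the test. The group means of Cd3d and Cd3g differed by less than the SD of either group, and Cd3e was higher on average in ChAT_positive pools. Cd3d, which pairs with Cd3e in the complex, had 1.92, 3.16, 2.49 and 2.14 in the ChAT_positive pools, against 1.93, 2.71, 2.29 and 2.55 in the ChAT_negative pools. ChAT_positive pool 2 was the highest of the 8 and pool 1 of each group was low, so the groups overlapped throughout. The means were 2.43 ± 0.54 in ChAT_positive and 2.37 ± 0.34 in ChAT_negative pools (SD, n = 4 each), a difference of 0.057 (SE 0.28, 95% interval -0.57 to 0.69, limma adjusted p = 0.923). As a ratio this was 1.04-fold, with an interval of 0.672 to 1.61. The two-sided exact permutation test over the 8 arrays gave p = 0.886, where 0.0286 is the smallest that 4 against 4 allow.

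Cd3g, the other partner of Cd3e, had 1.77, 2.90, 2.06 and 1.99 in ChAT_positive pools, against 1.71, 2.52, 2.03 and 2.40 in ChAT_negative pools. Its highest and lowest pools were those of Cd3d in the ChAT_negative group, and ChAT_positive pool 2 was again the highest of all. The difference was 0.017 (SE 0.27, 95% interval -0.59 to 0.62, limma adjusted p = 0.976, exact permutation p = 0.914). Cd3e, which forms a dimer with each of the other two, had 1.21, 2.25, 1.38 and 1.20 in ChAT_positive pools, against 0.69, 1.54, 0.67 and 1.24 in ChAT_negative pools. ChAT_negative pools 2 and 4 lay within the ChAT_positive range and pools 1 and 3 below it. The means were 1.51 ± 0.50 in ChAT_positive and 1.04 ± 0.43 in ChAT_negative pools (SD, n = 4 each). The difference of 0.47 (SE 0.29, 95% interval -0.17 to 1.12) did not pass the test (limma adjusted p = 0.342, exact permutation p = 0.257). As ratios of ChAT_positive to ChAT_negative, the intervals were 0.672 to 1.61 for Cd3d, 0.664 to 1.54 for Cd3g and 0.886 to 2.17 for Cd3e. They leave room for both higher and lower values in ChAT_positive pools.

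The small differences of Cd3d and Cd3g had no settled sign. Without ChAT_positive array 2 they were -0.19 and -0.22, and without ChAT_negative array 1 they were -0.088 and -0.13, none of them called. Cd3g was also -0.027 without ChAT_negative array 3 and -0.026 under quantile normalization. Cd3e without ChAT_positive array 2 was 0.23 (limma adjusted p = 0.578).

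The RefSeq promoter table of the GRCm38.p6 build held 6 of the 10 genes. The 250 bases before the start of the CD3 genes are printed because these 3 genes lie in a cluster on chromosome 9 and their signals moved together across pools. Cd8a is printed beside them, since its signal was lowest on ChAT_positive array 2, where theirs was highest. On that array 4 of the 10 spots of A_52_P443334 were well above background, and the second Cd8a probe was lowest on ChAT_positive array 4. On ChAT_negative array 2, where the CD3 chains were highest of their group, Cd8a lay 0.043 above its mean over the 8 arrays. Cd3g and Cd3d are read in opposite directions from starts 1355 bases apart, and the starts of Cd3d and Cd3e are 27825 bases apart. Capitals mark GGAA or its reverse complement TTCC, the core that ETS factors recognise.
Cd3g, chr9:44980432-44980681, minus strand: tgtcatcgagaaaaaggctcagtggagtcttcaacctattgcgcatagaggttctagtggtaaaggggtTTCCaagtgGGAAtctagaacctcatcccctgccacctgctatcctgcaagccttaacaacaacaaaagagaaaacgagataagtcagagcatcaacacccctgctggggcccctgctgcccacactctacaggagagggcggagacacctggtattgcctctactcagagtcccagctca
Cd3d, chr9:44981536-44981785, plus strand: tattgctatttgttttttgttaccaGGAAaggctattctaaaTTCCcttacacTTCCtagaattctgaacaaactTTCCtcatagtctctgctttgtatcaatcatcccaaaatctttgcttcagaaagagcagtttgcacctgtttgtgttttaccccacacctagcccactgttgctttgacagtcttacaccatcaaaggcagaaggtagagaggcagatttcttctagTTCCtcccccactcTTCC
Cd3e, chr9:45009612-45009861, minus strand: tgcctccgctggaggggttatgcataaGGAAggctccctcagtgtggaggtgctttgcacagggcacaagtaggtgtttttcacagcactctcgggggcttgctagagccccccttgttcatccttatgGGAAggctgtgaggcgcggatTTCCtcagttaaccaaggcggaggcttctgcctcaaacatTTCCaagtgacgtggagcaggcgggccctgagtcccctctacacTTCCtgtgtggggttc
Cd8a, chr6:71373177-71373426, plus strand: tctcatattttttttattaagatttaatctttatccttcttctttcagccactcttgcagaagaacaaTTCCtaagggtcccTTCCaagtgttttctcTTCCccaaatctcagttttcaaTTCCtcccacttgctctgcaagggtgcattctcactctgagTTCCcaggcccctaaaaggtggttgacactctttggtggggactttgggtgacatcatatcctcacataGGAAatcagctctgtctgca

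On either strand, GGAA occurred 2 times in the Cd3g window, 6 times in that of Cd3d, 5 in that of Cd3e and 6 in that of Cd8a. The share of all 32851 promoters of this length with a match was 93.45%, with a median of 3 matches. TATAAA, the TATA box core, was in none of these 4 windows (0 of 4) and in 12.37% of all promoters. TGTGGT, the RUNX core, was likewise in 0 of 4 and in 14.05% of all promoters. The E-box CAGNTG occurred 2 times in the Cd3g window and 1 time in that of Cd3d, and had no match in those of Cd3e and Cd8a, against 44.82% of all promoters with a match. No 2 of these motifs overlapped.

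**Figure D2:**
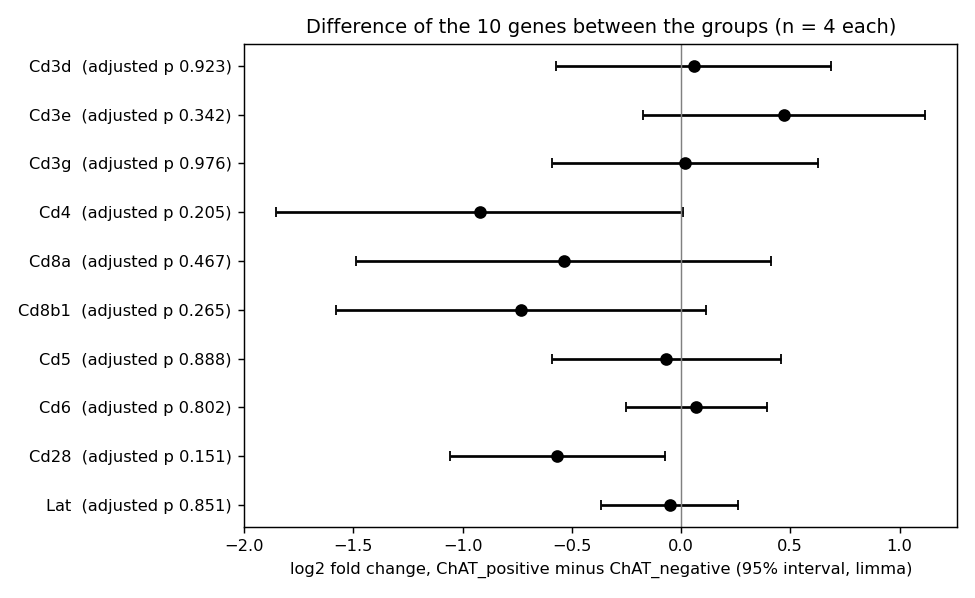
Difference in log2 signal of the 10 genes (horizontal axis, ChAT_positive minus ChAT_negative) with its 95% interval from limma (n = 4 each). Every interval but that of Cd28 includes 0, and no adjusted p is under 0.05.

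The coreceptor genes had lower means in ChAT_positive pools, and none passed the unpaired test. With the array (replicate) number as a block, Cd4 and Cd8b1 passed over genes (limma adjusted p = 0.0447 and 0.0341) and Cd8a did not (0.110). Fitted probe by probe, no Cd4 or Cd8b1 probe passed with this block or in any other fit run. The lowest limma adjusted p over probes was 0.0696 for A_55_P2013655 (Cd4), 0.122 for A_52_P383089 (Cd4) and 0.0563 for Cd8b1. Cd4, which binds MHC class II, was measured by 2 probes. A_55_P2013655, which stood for the gene, had -0.44, 0.22, -0.64 and -0.16 in ChAT_positive pools, against 1.05, 1.76, 0.049 and -0.19 in ChAT_negative pools. ChAT_negative pools 1 and 2 lay above every ChAT_positive pool, and ChAT_negative pools 3 and 4 within their range. The means were -0.25 ± 0.37 in ChAT_positive and 0.67 ± 0.90 in ChAT_negative pools (SD, n = 4 each). The difference was -0.92 (SE 0.41, 95% interval -1.85 to 0.0087), with limma adjusted p = 0.205 and exact permutation p = 0.143. Without ChAT_negative array 2 it was -0.56 (limma adjusted p = 0.371).

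The other Cd4 probe, A_52_P383089, printed as 10 spots on each array, had -3.22, -3.20, -3.85 and -3.44 in ChAT_positive pools, against -2.92, -2.58, -3.48 and -3.26 in ChAT_negative pools. ChAT_negative pools 1 and 2 were again the 2 highest. The difference was -0.37 (SE 0.23, limma adjusted p over probes = 0.386, exact permutation p = 0.257). Centred on their means, the 2 Cd4 probes differed by a root mean square of 0.47 log2 units over the 8 arrays. The SD among the 10 spots of A_52_P383089 within an array was 0.098 to 0.32. Both probes were well above background on all 8 arrays.

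Cd8a and Cd8b1, whose products pair into the coreceptor for MHC class I, were close to background. Cd8a probe A_52_P443334 had -2.79, -4.82, -4.43 and -3.95 in ChAT_positive pools, against -2.96, -3.69, -4.02 and -3.18 in ChAT_negative pools. The scanner flags put it well above background on 2 of 4 arrays in the ChAT_positive group and on 4 of 4 in the ChAT_negative group. The highest and the lowest of the 8 pools were both ChAT_positive, so the ChAT_negative pools lay inside that group's range.

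The means of A_52_P443334 were -4.0 ± 0.88 in ChAT_positive and -3.46 ± 0.48 in ChAT_negative pools (SD, n = 4 each), a difference of -0.54 (SE 0.42, limma adjusted p = 0.467, exact permutation p = 0.343). The second Cd8a probe, A_52_P150547, differed by -0.58 (SE 0.46, limma adjusted p over probes = 0.494), with 1 of 4 arrays in the ChAT_positive group and 4 of 4 in the ChAT_negative group above background. The 2 Cd8a probes, centred, differed by a root mean square of 0.37 log2 units.

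Cd8b1 had -4.17, -5.85, -5.38 and -5.50 in ChAT_positive pools, against -3.95, -4.97, -4.87 and -4.18 in ChAT_negative pools. Its signal cleared background on 1 of 4 arrays in the ChAT_positive group and on 3 of 4 in the ChAT_negative group. ChAT_positive pool 1 lay among the ChAT_negative pools and the other 3 ChAT_positive pools lay below all of them. The difference was -0.73 (SE 0.37, 95% interval -1.58 to 0.11, limma adjusted p = 0.265, exact permutation p = 0.171). Unscaled, the processed intensity of Cd8b1 was 30.4 to 131 in ChAT_positive pools and 66.5 to 137 in ChAT_negative pools, so the size of its difference rests on signal near background. Without ChAT_positive array 1 the difference of Cd8a was -0.94 (adjusted p = 0.133) and that of Cd8b1 was -1.08, and without ChAT_positive array 2 they were -0.26 and -0.52, none of them called.

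Cd28, the costimulatory receptor for Cd80 and Cd86, came nearest to a call. It had 1.85, 2.55, 1.66 and 1.79 in ChAT_positive pools, against 2.25, 2.88, 2.45 and 2.52 in ChAT_negative pools. ChAT_positive pool 2 lay above 3 of the ChAT_negative pools, and the other 3 ChAT_positive pools lay below all 4. The means were 1.96 ± 0.40 in ChAT_positive and 2.53 ± 0.26 in ChAT_negative pools (SD, n = 4 each). The difference was -0.57 (SE 0.22, 95% interval -1.06 to -0.074), which is 0.676-fold (interval 0.480 to 0.950). The unadjusted p was 0.0286, the limma adjusted p was 0.151 and the exact permutation p was 0.114. Without ChAT_positive array 2 the difference was called (-0.76, adjusted p = 0.0422). No other member gene was called when any single array was left out. Cd28 was also called with the array number as a block (limma adjusted p = 0.0285).

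Cd5 and Cd6 are related scavenger-type receptors that dampen T cell receptor signalling, and Lat is the scaffold that gathers the signalling enzymes below it. Cd5 had -2.40, -2.62, -2.73 and -2.94 in ChAT_positive pools, against -2.62, -3.08, -2.74 and -1.97 in ChAT_negative pools. Both the highest and the lowest pool were ChAT_negative, and the difference was -0.068 (SE 0.23, limma adjusted p = 0.888). Cd6 probe A_55_P2089913 had 0.82, 0.50, 0.66 and 0.96 in ChAT_positive pools, against 0.52, 0.52, 0.78 and 0.84 in ChAT_negative pools. These ranges nearly coincided, with a difference of 0.069 (SE 0.14, limma adjusted p = 0.802).

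Lat had 1.90, 1.93, 1.84 and 1.97 in ChAT_positive pools, against 1.83, 1.69, 2.16 and 2.17 in ChAT_negative pools. The ChAT_positive pools lay within 0.13 of each other, inside the ChAT_negative range, which spanned 0.48. The difference of Lat was -0.053 (SE 0.14), and its 95% interval of 0.776-fold to 1.20-fold was the narrowest of the 10 genes (limma adjusted p = 0.851). The signs of these small differences turned with single arrays, with no call. Without ChAT_positive array 4 the difference of Cd5 was 0.022 and that of Cd6 was -0.0060. Without ChAT_negative array 4 that of Cd5 was 0.14 and that of Lat 0.017, and without ChAT_negative array 3 that of Lat was 0.014.

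The members fell into different patterns over the pools. With each gene centred on its mean over the 8 arrays, Cd3d and Cd3g were the closest of the 45 pairs of member genes, with a root mean square difference of 0.085 log2 units. Cd3e lay 0.26 from each of them, and Cd8a lay 0.23 from Cd8b1. Cd6 lay nearer to Lat, at 0.14, and Cd5 lay 0.26 from Lat. Cd6 and Lat had the lowest SD of the members over the 8 arrays (0.18 and 0.17), and a low SD alone brings 2 genes near by this measure. The array numbered 2 was the highest of its group for each CD3 chain, in both groups. ChAT_positive array 2 was the highest array for 3 of the 10 genes and the lowest for 3, which were Cd8a, Cd8b1 and Cd6.

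**Figure D3:**
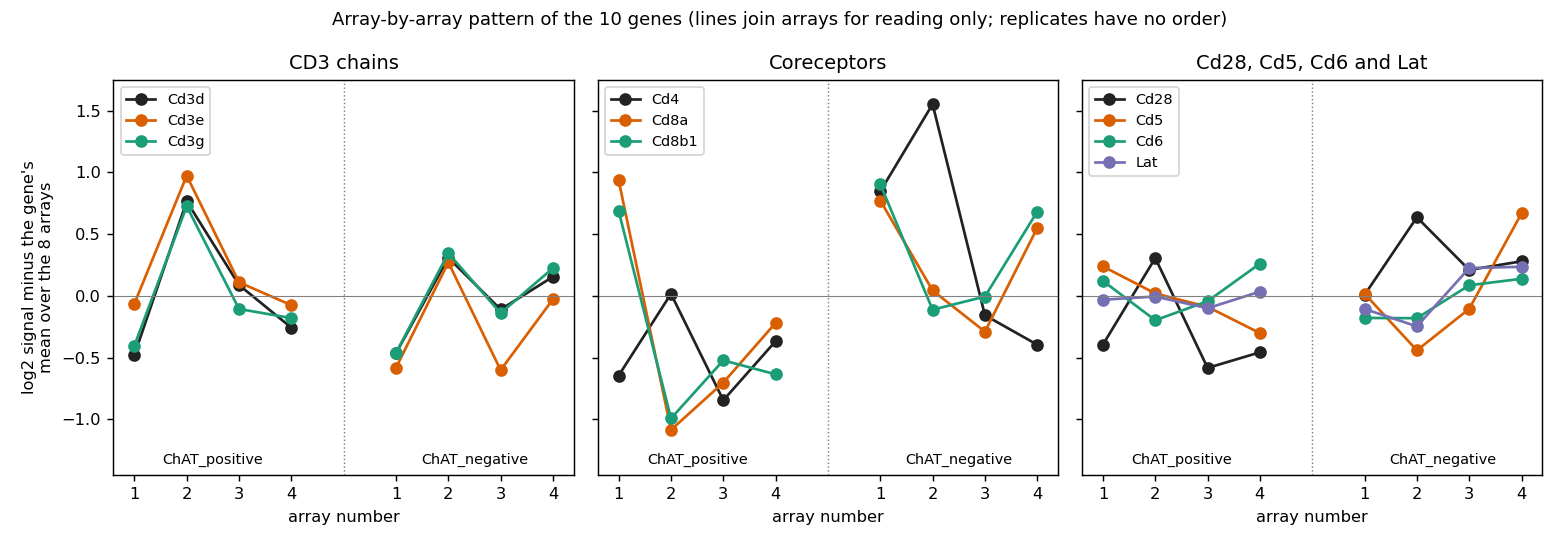
Log2 signal of the 10 genes minus each gene's mean over the 8 arrays (vertical axis), by array, with ChAT_positive arrays at the left of each panel and ChAT_negative arrays at the right; lines only guide the eye. The 3 CD3 chains follow each other over the pools and peak on array 2 of each group, where Cd8a and Cd8b1 are at their lowest in the ChAT_positive group.

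Markers of other cells moved with that array. A T cell list without the member genes (10 of 14 tested) had a mean log2 level of 1.1 on ChAT_positive array 2, against 0.57 to 0.69 on the other ChAT_positive arrays, and of 1.14 on ChAT_negative array 2, against 0.78 to 0.98 on the other ChAT_negative arrays. The rise on ChAT_positive array 2 was not particular to T cell genes. The 13 NK markers averaged 3.25 there, against 2.72 to 2.81 on the other ChAT_positive arrays. On ChAT_negative array 2 they averaged 3.65, against 3.40 to 3.66 on the other ChAT_negative arrays. The 7 tested basophil and mast cell markers averaged -4.09 on ChAT_positive array 2, against -1.86 to -1.52 on the other ChAT_positive arrays. On ChAT_negative array 2 these markers averaged -0.19, against 1.31 to 1.93 on the other ChAT_negative arrays. The ChAT_positive averages include values not above background. Cd200r3 was above background on 0 of 4 ChAT_positive arrays, and Prss34 and Fcer1a each on 3 of 4. The part of these cells in the pattern of the CD3 chains was not tested. Without both arrays numbered 2, an alternative chosen after the values were seen, Cd3d differed by -0.076, Cd3e by 0.39 and Cd3g by -0.10, and 0 of the 10 genes were called.

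The genes whose centred pattern was nearest to the mean of the 3 CD3 chains, over 8 arrays and among 8811 genes with at least 0.5 times its SD, were Zgpat, Tmem41b, Macir, Zmym2 and Sipa1l1. They lay 0.16 to 0.17 log2 units from it by root mean square difference, where the pattern itself had an SD of 0.42. Near to Cd28 were Gramd1b, at 0.10, and Gimap7, at 0.11. For Cd4 they were Oprl1, Klhdc7b and Fam178b, and for Cd8a they were Ptprf, Mmp17 and Mtag2. Mtag2 was also the nearest to Cd8b1, at 0.18, followed by Ugt1a10 and Cib3. The nearest to Cd5 were Fbxw8, H2ax and Lmf2, to Cd6 Sde2, Zfp551 and Dync1h1, and to Lat Kctd13, Cdca4 and Dvl3. All arrays share their slide with their group, so these likenesses are descriptions.

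Around the receptor, 71 further genes were listed in 5 groups and 69 of them tested, of which 2 rose and 3 fell in ChAT_positive pools, beside 2.81% of all genes called higher and 3.15% called lower. Among the 24 genes reported here that carry the signal inward, 22 were tested and none of these was called by limma (0 of 22). At an unadjusted p under 0.05, 0 of them were higher and 7 were lower, where 12.9% of all genes were higher and 11.9% lower. Their mean was lower in ChAT_positive pools for 19 of the 22, and the median difference was -0.24, beside 0.025 over all genes.

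The proximal parts given here were named for their role after their values were seen. Cd247, the zeta chain, which also serves NK cell receptors, had 1.08, 1.88, 1.35 and 1.05 in ChAT_positive pools, against 1.72, 2.24, 2.35 and 2.34 in ChAT_negative pools. ChAT_positive pool 2 lay above ChAT_negative pool 1, so the groups overlapped, and the difference of -0.82 (SE 0.22) missed the threshold (limma adjusted p = 0.0619). Lck differed by -0.39 (SE 0.14, limma adjusted p = 0.130). Zap70 differed by -0.59 (SE 0.23, limma adjusted p = 0.147). Cd247 passed in 9 of 22 alternatives, 1 of which loosened the threshold, at adjusted p values down to 0.0184. It passed without ChAT_positive array 2 (0.0274) and without ChAT_negative array 1 (0.0417). Lck passed in 1 of 22, with normexp background correction (0.0271), and Zap70 in 1 of 22, without ChAT_positive array 2 (0.0408). Up to 4 genes of the proximal list were called lower under an alternative.

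The attenuators of the signal were divided, with 1 higher, 3 lower and 11 not called of 15 tested, and a median difference of -0.026. Sit1, a transmembrane adaptor that restrains signalling, rose, with -0.43, 0.13, 0.19 and -0.54 in ChAT_positive pools, against -1.40, -1.07, -0.89 and -1.05 in ChAT_negative pools. All ChAT_positive pools lay above all ChAT_negative pools, as for 9.37% of all genes in this direction, and the difference was 0.94 (SE 0.20, limma adjusted p = 0.0336). Ubash3a fell, a member with Ubash3b of the pair of phosphatase-like proteins that limit receptor signalling. It had -2.81, -2.56, -3.52 and -3.22 in ChAT_positive pools, against -2.09, -2.15, -1.97 and -1.85 in ChAT_negative pools. The groups did not overlap, as for 6.14% of all genes in this direction, and the difference was -1.01 (SE 0.20, limma adjusted p = 0.0282). Ubash3b fell by 0.61 on the log2 scale (SE 0.15, limma adjusted p = 0.0451). The adaptor Dok2 fell by 0.77 on the log2 scale (SE 0.18, limma adjusted p = 0.0390).

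None of 12 co-signalling receptors related to Cd28 was called by limma (0 of 12). At an unadjusted p under 0.05, 1 of them was higher and 0 were lower, where 12.9% of all genes were higher and 11.9% lower. The median difference of the 12 was -0.23. Of these, Tnfrsf9 differed by -0.12 and Cd2 by -0.37 (limma adjusted p = 0.754 and 0.213). Of 8 ligands on the partner cell, 1 rose, with a median difference of 0.20. It was Cd86, a ligand of Cd28, with 2.75, 2.82, 2.59 and 2.35 in ChAT_positive pools, against 2.09, 2.04, 1.48 and 1.32 in ChAT_negative pools. Its groups did not overlap, as for 9.37% of all genes in this direction, and the difference was 0.89 (SE 0.20, limma adjusted p = 0.0387). Of 12 transcription factors of the T lineage, 0 were called by limma, with a median of -0.19. Before adjustment 1 was higher and 2 were lower, beside the same 12.9% and 11.9% of all genes. Satb1 and Ets1 differed by -0.17 and -0.23.

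These 5 calls lay near the threshold and most single arrays could end them. Without 1 array, the call of Dok2 was lost in 6 of 8 fits, at adjusted p values of 0.0757 to 0.114 without ChAT_positive array 1, 3 or 4 or ChAT_negative array 2, 3 or 4. Ubash3a was lost without ChAT_positive array 1, 3 or 4 or ChAT_negative array 3 or 4 (0.0504 to 0.0841). Sit1 was lost without any single array but ChAT_positive array 4 (0.0525 to 0.0916), and Ubash3b without any but ChAT_positive array 2 (0.0600 to 0.124). Cd86 was lost without any ChAT_positive array or ChAT_negative array 3 or 4 (0.0526 to 0.0994). All 5 kept their direction in these fits.

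**Figure D4:**
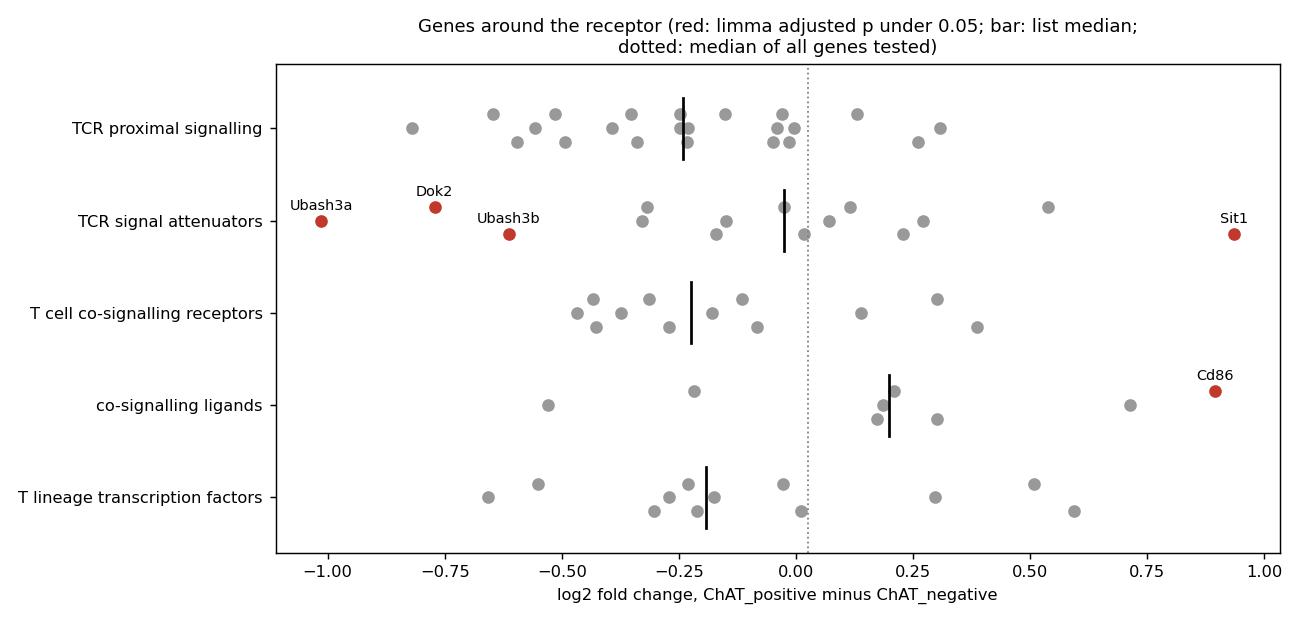
Difference in log2 signal (horizontal axis, ChAT_positive minus ChAT_negative) of each tested gene of the 5 lists around the receptor; red points passed the limma test at an adjusted p under 0.05, bars are list medians and the dotted line is the median of all genes. The 5 called genes are Ubash3a, Dok2, Ubash3b, Sit1 and Cd86, and 19 of the 22 proximal signalling genes lie below 0.

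The sort and the cell types in the pools bear on the members as follows. Chat was higher in ChAT_positive pools by 1.1 (SE 0.20, limma adjusted p = 0.0201), a call lost without ChAT_positive array 3 or ChAT_negative array 4 (adjusted p = 0.0647 at most). Klrb1c, which encodes the NK1.1 antigen, was lower by a difference of -1.60 (SE 0.13, limma adjusted p = 0.00103), as 1 of 3 lower genes among 13 NK markers, whose mean log2 level was 2.72 to 3.25 in ChAT_positive and 3.40 to 3.66 in ChAT_negative pools. Of the T cell markers outside the 10 genes, 1 of 10 tested was called, Ubash3a above, and their mean log2 level was 0.57 to 1.1 in ChAT_positive and 0.78 to 1.14 in ChAT_negative pools. Genes of the receptor's constant regions carry no symbol among the probes used here and were not analysed here.

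Of 4 tested gamma delta T cell markers 2 were higher, Blk by 1.01 and Maf by 0.60 (limma adjusted p = 0.0299 and 0.0489), and the list averaged -0.39 to 0.051 in ChAT_positive against -1.23 to -0.85 in ChAT_negative pools. Without single arrays the call of Blk was lost in 5 of 8 fits and that of Maf in 7 of 8, at adjusted p values up to 0.0877 and 0.117. Which cells of the pools carried Blk and Maf was not tested. Of 8 markers of NKT and innate lymphoid cells 4 were higher, and of 12 B cell markers 5 were higher, Pax5 by 1.31, Bank1 by 1.12 and Ebf1 by 1.03 among them. Over the alternatives run, these counts ranged from 2 to 4 and from 1 to 7. Of other lists, 2 of 7 dendritic cell, 0 of 9 monocyte and macrophage, 5 of 7 basophil and mast cell, 2 of 8 platelet, 2 of 4 erythroid and 2 of 7 neutrophil markers were lower and 0 higher in ChAT_positive pools. Over the alternatives run, the lower counts ranged from 0 to 3, 0 to 3, 1 to 7, 0 to 7, 1 to 3 and 0 to 7 in the order given, and up to 2 monocyte and macrophage markers were called higher. Clec9a of the dendritic list, Cd200r3 of the basophil list and Retnlg of the neutrophil list were each detected above background in 0 ChAT_positive and 4 ChAT_negative pools, so they entered the test only through the group in which they were high. Subsets of mouse splenic dendritic cells carry Cd4 or Cd8a. Of that list Itgax differed by -1.31 and Clec9a was called with the limit just given, while the other 5 tested genes differed by -0.15 to 0.12. The part of these cells in the values of the members was not tested.

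**Figure D5:**
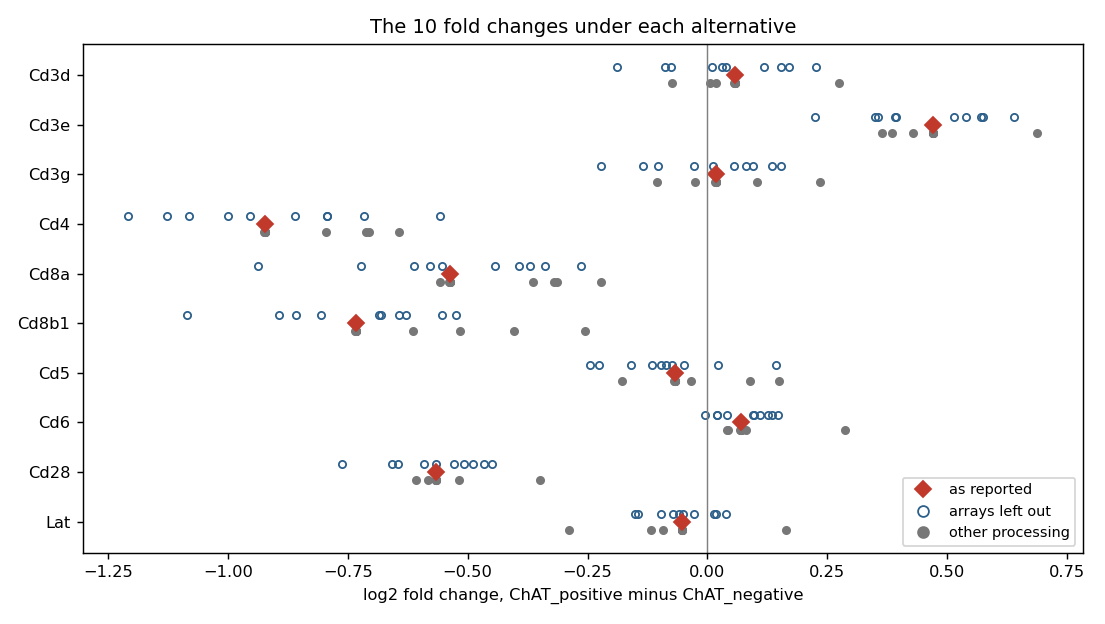
Difference in log2 signal (horizontal axis, ChAT_positive minus ChAT_negative) of the 10 genes as reported (red diamonds), with arrays left out (open circles) and under other processing (grey points). Cd4, Cd8a, Cd8b1 and Cd28 stay below 0 and Cd3e above 0 under every alternative run, while the signs of Cd3d, Cd3g, Cd5, Cd6 and Lat turn under some.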

How the data were processed

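RNA of 8 pools was hybridised to 8 Agilent arrays with the dye Cy3 alone. It was amplified from 100 ng, per the labels' protocols. The deposited spot intensities come from Agilent Feature Extraction 11.5.1.1, per the file headers, and are background-subtracted and not scaled between arrays. The deposited value table holds log2 values that followed log2 processed intensity less a constant near each array's 75th percentile. Its column medians were -0.72 to -0.63, and its direction follows the scanner values.

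Control spots were left out and spots of a probe averaged. Outlier-flagged spots were left out too, unless every spot of the probe on that array was flagged, in which case its value was kept. Of 55681 probes, 26762 were named with 1 symbol through RefSeq accessions in a GRCm38.p6 table and 28919 were not. Log2 signals were scaled to the 75th percentile of the non-control probes of each array. A probe flagged well above background by the scanner on 4 or more of 8 arrays was kept (32087), and the brightest stood for its gene (13608 genes). Between 50.2% and 63.2% of spots per array were above background and 0 were saturated, and the number of arrays limits the precision.

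The groups were compared with limma 3.58.1 in R 4.3.3 (lmFit, eBayes, two-sided, Benjamini-Hochberg over all genes, or over all probes for single probes). On simulated data with 200 of 13608 genes changed, it recovered 68% of those changed 2-fold and 86% of those changed 4-fold, with 4.94% of calls false. The simulated noise was independent for each gene and array, with no slide effect and no deviation shared between arrays. These rates therefore need not hold for the real arrays. As alternatives, arrays were left out, the replicate number was a block, the deposited table was the source, arrays were weighted, and the scaling, the threshold, the variance model, the choice of probe, the filter on dim probes and the background correction (normexp on the median spot signal) were changed.

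The members, lists and tests were chosen with earlier results of these data known. The text names all members, up to 4 called genes of each pathway list or its 2 brightest where none was called, called genes of marker lists only as far as they bear on the members, and the genes of nearest pattern, left out where their SD was under 0.5 times that of the pattern. Cd247, Lck and Zap70 were added for their role. A few genes of the lists and of nearest pattern are not reported here. The lists were proximal signalling, attenuators, co-signalling receptors, co-signalling ligands, T lineage transcription factors, and the marker lists of the cell types given above.

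Slide and scan each held 1 group and could not be a block.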

Additional observations from a re-analysis of the deposited data

Results flagged for a closer look

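None of the member probes had a pool that stood apart from its group by Dixon's test for 4 samples (95% critical value), and 2 of the 106 gene and group values screened did, where chance gives about 1 in 20. Prf1, the perforin gene, had 4.87 on ChAT_positive array 2, against 4.38 to 4.40 on the other 3 arrays of the group, a gap of 0.956 of the group's range. Prss34, a basophil protease gene, had -5.34 on ChAT_positive array 2, against -1.77 to -1.31 on the others, a gap of 0.884 of the range. That value lies below the lowest signal flagged well above background on the array (-4.99), so the size of the gap rests on an undetected value. On ChAT_negative array 2 Prss34 had 0.68, against 2.72 to 3.67 on the other ChAT_negative arrays. Both flagged values are on ChAT_positive array 2, the array on which the CD3 chains were highest.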

How the results depend on the processing

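None of the 10 genes was called under any alternative run, except with the replicate number as a block and without ChAT_positive array 2. With the replicate block, 3 were called, Cd4 (adjusted p = 0.0447), Cd8b1 (0.0341) and Cd28 (0.0285), and 1 probe over all probes, that of Cd28. The same block gave 12 called genes around the receptor, where 5 were reported, and 2342 over all genes, where 811 were reported. Same-numbered arrays of the 2 groups deviated together from their group means for numbers 1, 2 and 3 (correlations 0.52 to 0.66) and not for number 4 (0.032), and 3 of 4 correlated best with their own number. The rule used asks that every number correlate, so the samples were treated as unpaired. Leaving out single arrays gave 0 to 1 member genes and 0 to 7 genes around the receptor, and over all genes 210 to 705. The genes around the receptor numbered 1 under median scaling, 8 with normexp background correction, with the trended and robust variance and at an adjusted p under 0.1, 0 with no filter on dim probes, 2 with a filter at 1 of 8 arrays, 3 without both arrays numbered 2 and 0 without both arrays numbered 3. Over all genes, 330 were called under median scaling, 223 with no filter, 1704 at an adjusted p under 0.1, 537 without both arrays numbered 2 and 56 without both numbered 3, whose spike-in signals were the lowest of their group for at least 9 of 10 probes.

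Some uncalled differences changed sign, and the cause was not tested. Median scaling moved the median of all genes to 0.24, and the differences of Cd5 (0.15), Lat (0.16), Tnfrsf9 (0.10) and Satb1 (0.042) were then positive and below that median. Quantile normalization gave Cd3g -0.026 and Cd5 0.090. Array weights gave Cd3d -0.074 and Cd3g -0.11 over genes, and -0.056 and -0.087 over probes. Leaving out single arrays gave -0.19 to 0.23 for Cd3d, -0.22 to 0.15 for Cd3g, -0.23 to 0.14 for Cd5, -0.0060 to 0.15 for Cd6 and -0.14 to 0.017 for Lat. Without both arrays numbered 2, Cd3d was -0.076 and Cd3g -0.10, and without both numbered 3, Lat was 0.038. Cd3e ranged from 0.23 to 0.69, Cd4 from -1.21 to -0.56, Cd8a from -0.94 to -0.22, Cd8b1 from -1.08 to -0.26 and Cd28 from -0.76 to -0.35. Cd8a and Cd8b1 had no value with probes required above background on all 8 arrays, since their probes were not.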
